A study of Rattus norvegicus with 12 samples.

Results

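Levels of messenger RNA in rat motor cortex were followed for 8 genes of the glutamatergic synapse, the whole set named for it. The deposited table held 16534 features. The genes were taken by Ensembl identifier, with the symbol assigned to each identifier in the choice of the set: Slc17a7 (ENSRNOG00000020650), Snap25 (ENSRNOG00000006037), Syt1 (ENSRNOG00000006426), Grin1 (ENSRNOG00000011726), Grin2a (ENSRNOG00000033942), Grin2b (ENSRNOG00000008766), Dlg4 (ENSRNOG00000018526) and Camk2a (ENSRNOG00000018712). All 8 were in the table and passed the filter on low values. The files do not pair identifiers with symbols and neither did the reference tables used here (0 of 16534 identifiers matched), so these names rest on that assignment and could not be checked against an annotation.

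Messenger RNA was sequenced from 12 rats, 3 in each of 4 groups: untreated controls (labelled ctrl), rats in which Parkinson's disease was modelled with 6-OHDA (labelled PD), stimulated controls (stim on ctrl) and stimulated model rats (stim on PD). 6-OHDA, or 6-hydroxydopamine, is a toxin taken up by catecholamine neurons and used to destroy dopamine cells. Stimulation went through a graphene array placed over primary motor cortex, for which the design text gives 130 Hz in daily sessions of 1 hour for 2 weeks. The sources used here give no strain, age, sex, injection site or side, no sham surgery or sham array, and no library batch, nor do they say whether stimulated controls had the same schedule. Below, rats of both PD groups are called lesioned and rats of both control groups unlesioned.

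At these synapses the vesicular transporter VGLUT1 (Slc17a7) loads glutamate into vesicles, the SNARE protein SNAP-25 (Snap25) drives their fusion with the membrane, and synaptotagmin-1 (Syt1) is the calcium sensor that triggers it. On the receiving side the NMDA receptor joins the obligatory GluN1 subunit (Grin1) to GluN2 subunits such as GluN2A (Grin2a) and GluN2B (Grin2b), and the scaffold PSD-95 (Dlg4) holds it beside the kinase CaMKII, whose alpha subunit (Camk2a) is abundant in forebrain excitatory neurons. Dopamine loss is known to alter cortical and striatal glutamate signalling, and the balance of GluN2A to GluN2B shapes the kinetics of NMDA currents.

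The upstream sequences of 2 of these genes are shown because they bracket the set: Slc17a7 had the largest estimated difference between lesioned and unlesioned rats, and Grin1 is the subunit that every NMDA receptor needs. RefSeq promoter windows (build GRCr8) were matched by symbol for 5 of the 8 genes, Slc17a7, Camk2a, Grin1, Dlg4 and Syt1; Grin2a, Grin2b and Snap25 were not matched. The bases before each gene's outermost annotated start are given, which is 217 bases on the plus strand at chr1:104785955-104786171 for Slc17a7 and 250 bases on the minus strand at chr3:28528755-28529004 for Grin1. These positions are on GRCr8, not on mRatBN7.2, the build named for the read counts. Capitals mark the GC box GGGCGG, searched on both strands with overlapping matches allowed.
Slc17a7: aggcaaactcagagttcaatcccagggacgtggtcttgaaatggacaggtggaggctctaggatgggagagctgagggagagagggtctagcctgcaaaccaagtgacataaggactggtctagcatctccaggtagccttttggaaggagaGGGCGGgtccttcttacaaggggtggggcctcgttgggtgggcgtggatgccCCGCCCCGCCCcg
Grin1: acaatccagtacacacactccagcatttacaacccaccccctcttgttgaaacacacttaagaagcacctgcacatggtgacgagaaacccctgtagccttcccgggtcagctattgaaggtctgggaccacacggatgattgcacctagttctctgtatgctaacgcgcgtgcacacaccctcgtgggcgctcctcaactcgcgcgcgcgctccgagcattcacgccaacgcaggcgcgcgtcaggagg
The Slc17a7 sequence held 3 GC boxes and the Grin1 sequence held 0. In windows of 250 bases, a GC box was present in 2 of the 5 matched genes (Slc17a7 and Syt1) and in 30.5% of 33469 promoters. The short form TGACG of the cAMP response element, a motif through which neuronal activity acts on many genes, was present in Camk2a and Grin1 and in 18.2% of promoters; the full element TGACGTCA was in 0 of the 5 windows and in 1.59% of promoters. These are matches of letters only.

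Libraries held 42905441 to 62082830 counted reads, and each of the 8 genes had at least 736 reads in every library, so counting error was at most 3.69% of a value. Levels are in CPM, reads scaled to a common library total, which are not scaled for transcript length and so are not compared between genes. In each test below, a gene is called changed at an adjusted p under 0.05 by limma on log2(CPM + 0.5), adjusted over all 14985 features tested. Differences are on that log2 scale with the standard error (SE). By this test 0 of the 8 genes changed in any of 7 comparisons, and edgeR also called 0 in each. DESeq2 called Slc17a7 in lesioned against unlesioned rats and no other of the 8 genes in these comparisons. Markers of other cell types could not be looked up without symbols, so a shift in the cell types present was not tested. In bulk tissue, fewer excitatory neurons and less RNA per neuron cannot be told apart.

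**Figure D1:**
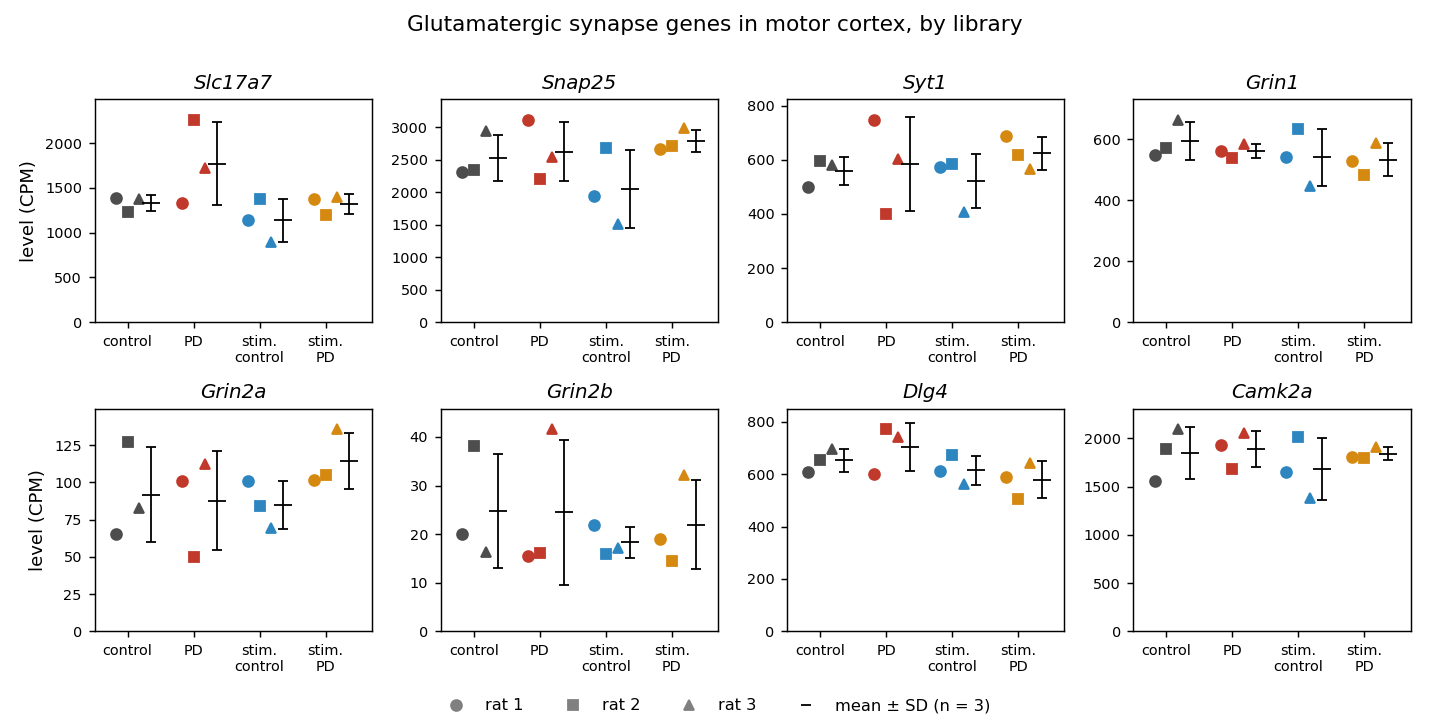
Level of each gene (CPM, linear axis from 0) in each of the 12 libraries, by group; symbols give the rat number within its group, and the black bar is the mean ± SD (n = 3). PD rat 2 is highest for Slc17a7 at 2260.5 CPM and lowest for Grin2a at 50.0 CPM, and stimulated control rat 3 is lowest for Slc17a7 and Snap25.

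The first question was what the 6-OHDA model does to these genes in unstimulated rats. Slc17a7 had the highest estimate in PD against control rats. It measured 1384, 1232 and 1375 CPM in control rats 1 to 3 and 1331, 2260.5 and 1717 CPM in PD rats 1 to 3. PD rats 2 and 3 lay above every control, whereas PD rat 1 lay inside the control range. The mean was 1330.4 ± 85.7 CPM in control and 1769.7 ± 467 CPM in PD rats (SD, n = 3), and the difference of 0.38 (SE 0.19) did not pass (limma adjusted p = 0.256; 1.30-fold, 95% interval 0.971 to 1.74). Without PD rat 2 it was 0.19, and without PD rat 1 it was 0.57. The other presynaptic genes had estimates near 0, at 0.05 (SE 0.20) for Snap25 and 0.02 (SE 0.21) for Syt1, although PD rats spread widely for both. These estimates depend on the scaling. As deposited, the median feature was -0.11 in PD against control rats and 5 of the 8 genes had estimates above 0, with a median of 0.03. With TMM factors the median feature was 0.03, and all 8 genes had estimates above 0, with a median of 0.18; Snap25 was then at 0.20 and Syt1 at 0.17, and Grin1, Grin2a and Grin2b, which are below 0 in the values given next, were at 0.07, 0.05 and 0.06.

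Syt1 shows that spread. PD rats measured 749, 401 and 603 CPM, the first being the highest and the second the lowest of all 12 libraries. Control rats measured 499, 596 and 580.3 CPM and all lay between those extremes. Snap25 was at 3118, 2211 and 2548 CPM in PD rats and at 2316, 2339 and 2937 CPM in controls, so that PD rat 1 was again the highest library.

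On the postsynaptic side, Grin1 ranged from 547 to 664 CPM in control and from 537 to 583 CPM in PD rats, a difference of -0.08 (SE 0.14). Dlg4 was at 608, 653 and 697 CPM in control and at 599, 772 and 739.8 CPM in PD rats, a difference of 0.10 (SE 0.13). PD rats 2 and 3 stood above the controls for Dlg4, as they did for Slc17a7, and PD rat 1 stood below them. Camk2a ranged from 1558 to 2098 CPM in control and from 1683 to 2055 CPM in PD rats and had a difference of 0.04 (SE 0.16). Grin2a and Grin2b had differences of -0.09 (SE 0.30) and -0.08 (SE 0.41), with wider error than the rest. Leaving out single libraries moved them from -0.31 to 0.27 for Grin2a and from -0.53 to 0.27 for Grin2b, so neither kept its sign.

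Of the 8 genes, 0 were called (0 at an unadjusted p under 0.05), where 4.38% of all features were called. Control and PD libraries overlapped for each of the 8 genes, where 29.1% of features had no overlap. The 95% intervals reached from 0.511-fold to 1.75-fold for Grin2b, the widest, and from 0.880-fold to 1.31-fold for Dlg4, the narrowest on the log2 scale. In this fit with all rats and the deposited scaling, changes of 2-fold in either direction lay outside the interval of each of the 8 genes. For Grin2b this held only narrowly, and its estimate was -0.53 without PD rat 3. For Slc17a7 the interval reached 1.74-fold, and its estimate rose from 0.38 to 0.53 with TMM factors. Intervals under other scalings are not given here, so the statement on 2-fold changes covers the deposited scaling only.

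The same difference was measured between stimulated PD and stimulated control rats, which share no library with the pair above. Snap25 had the largest difference. It was at 1949.8, 2689 and 1509.7 CPM in stimulated control and at 2672, 2718 and 2988 CPM in stimulated PD rats, and stimulated control rat 2 alone reached the range of the stimulated PD rats. The difference was 0.49 (SE 0.20), 1.40-fold with a 95% interval of 1.03 to 1.90, with an unadjusted p of 0.0349 and a limma adjusted p of 0.159. Without stimulated control rat 2 the difference was 0.70 and passed (limma adjusted p = 0.0495), in a fit that called 5.79% of all features. Without stimulated control rat 3 it was 0.28 and did not pass.

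Grin2a was the only 1 of the 8 genes whose stimulated groups did not overlap. Stimulated control rats were at 101, 84.0 and 69.3 CPM and stimulated PD rats at 102, 105 and 136 CPM. The gap between the groups was narrow, from 101 to 102 CPM, and the difference of 0.43 (SE 0.30) did not pass (limma adjusted p = 0.378). Slc17a7 differed by 0.23 (SE 0.19), Syt1 by 0.27 (SE 0.21), Camk2a by 0.15 (SE 0.16), Grin2b by 0.19 (SE 0.41), Grin1 by -0.01 (SE 0.14) and Dlg4 by -0.09 (SE 0.13). Without stimulated control rat 3 Slc17a7 differed by 0.08. The median feature differed by -0.12 as deposited and by -0.02 with TMM factors, under which all 8 genes had estimates above 0, Grin1 and Dlg4 included. In this pair 0 of the 8 genes were called and 1 had an unadjusted p under 0.05, where 1.45% of all features were called; 1 of the 8 did not overlap, where 41.4% of features did not.

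Combining both pairs set 6 lesioned against 6 unlesioned rats. Each estimate is the mean of the 2 pair differences above, so it is not a further observation. Slc17a7 had the largest, 0.31 (SE 0.14), or 1.24-fold with a 95% interval of 1.01 to 1.52. It averages 0.38 in unstimulated and 0.23 in stimulated rats, and in the stimulated pair Snap25 had the largest difference (0.49). Its unadjusted p was 0.0450 and its limma adjusted p was 0.122. Snap25 followed at 0.27 (SE 0.14; limma adjusted p = 0.195), then Grin2a at 0.17 (SE 0.21), Syt1 at 0.15 (SE 0.15), Camk2a at 0.09 (SE 0.11), Grin2b at 0.05 (SE 0.29), Dlg4 at 0.01 (SE 0.09) and Grin1 at -0.05 (SE 0.10). For Dlg4 and Grin1 the intervals were the tightest, 0.872-fold to 1.16-fold and 0.837-fold to 1.12-fold. None of the 8 genes was called by limma (1 at an unadjusted p under 0.05), where 23.0% of all features were called, and 0 of the 8 had no overlap, where 9.36% of features had none.

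The Slc17a7 estimate sat near the threshold. DESeq2 gave 0.45 with an adjusted p of 0.0228, in an analysis that called 29.1% of all features, and edgeR's quasi-likelihood test gave 0.45 with an adjusted p of 0.0549. Without PD rat 1 limma gave 0.40 and an adjusted p of 0.0398 (22.3% of features called), and without PD rat 2 it gave 0.21, which did not pass. Snap25 passed without stimulated control rat 2, at 0.37 and a limma adjusted p of 0.0474 (23.9% of features called), whereas without stimulated control rat 3 it was at 0.17 and did not pass. Grin2a ranged from 0.06 to 0.35 and passed in none of the fits that left out 1 library. Scaling entered here: with the deposited scaling the median feature was 0.12 lower in lesioned rats (-0.12) and the median of the 8 genes was 0.12, whereas with TMM factors these medians were 0.0017 and 0.25. The estimates of 7 of the 8 genes were above 0 as deposited, 8 with TMM factors and 6 after quantile normalization.

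**Figure D2:**
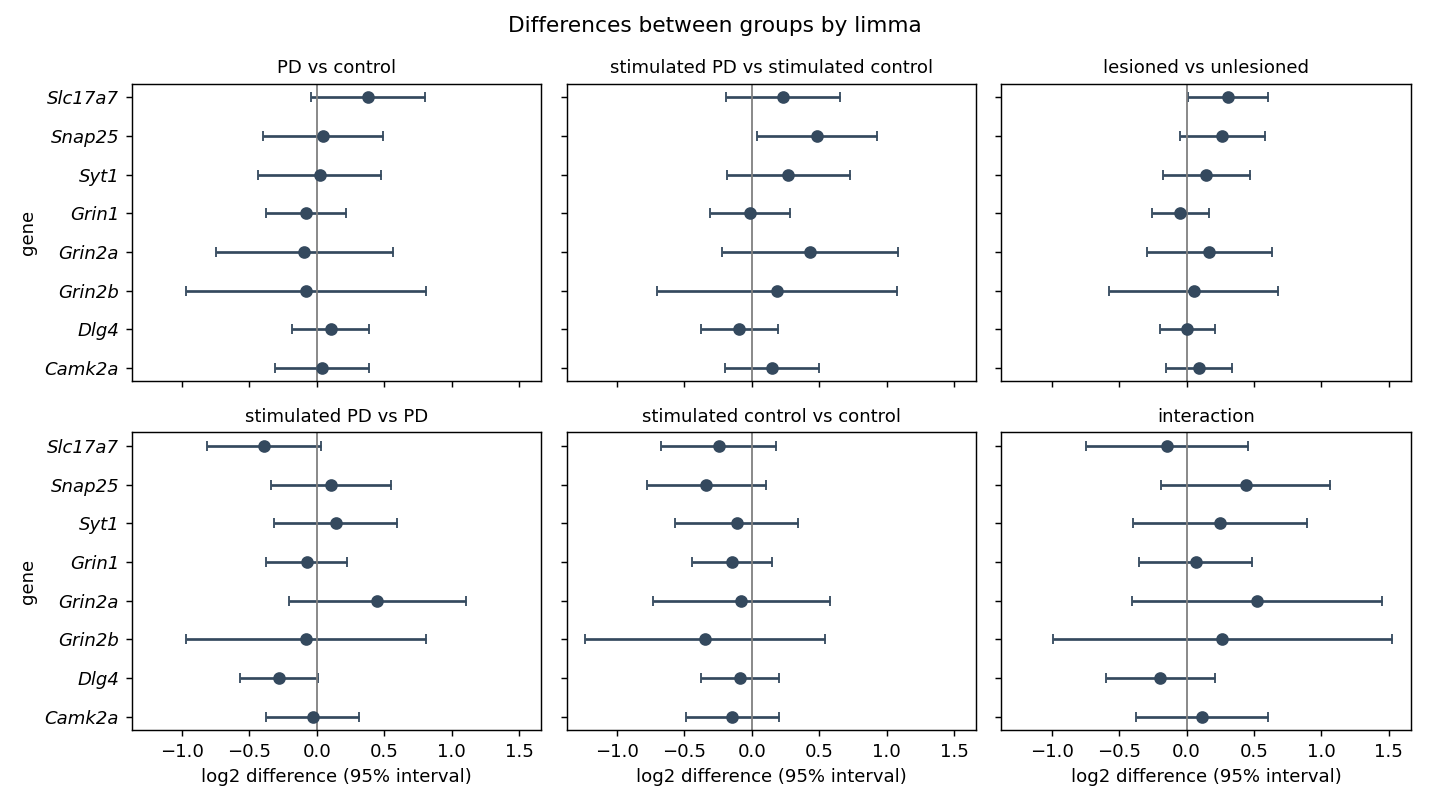
Log2 difference on the log2(CPM + 0.5) scale by limma for each gene (points) with its 95% interval (bars) in 6 comparisons; 0 is no difference. Intervals exclude 0 for Snap25 between stimulated groups and for Slc17a7 between lesioned and unlesioned rats, and neither difference passed after adjustment over all features (0.159 and 0.122).

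The effect of stimulation in the model was read from stimulated PD against PD rats. Slc17a7 was at 1372, 1194 and 1398 CPM in stimulated PD rats, a mean of 1321 ± 111 CPM (SD, n = 3), close to the 1330.4 CPM of controls. The difference from PD rats was -0.39 (SE 0.19; limma adjusted p = 0.302), and PD rat 1, at 1331 CPM, lay inside the stimulated range. The same 3 PD libraries gave the difference of 0.38 between PD and control rats, so these 2 differences are not independent. Dlg4 was at 589, 504 and 643 CPM in stimulated PD rats and differed by -0.28 (SE 0.13; limma adjusted p = 0.292), with PD rat 1, at 599 CPM, again inside the stimulated range.

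Both genes depended on single libraries, in either direction. Without PD rat 1 the difference was -0.58 for Slc17a7 (limma adjusted p = 0.0480) and -0.39 for Dlg4 (limma adjusted p = 0.0497), in a fit that called 19.6% of all features. Without PD rat 2 the Slc17a7 difference was -0.20, and without stimulated PD rat 2 the Dlg4 difference was -0.18; neither passed. Grin2a had an estimate of the opposite sign, 0.45 (SE 0.30; limma adjusted p = 0.398), which was 0.089 without PD rat 2, its lowest library. Syt1 differed by 0.14 (SE 0.21), Snap25 by 0.10 (SE 0.20), Camk2a by -0.03 (SE 0.16), Grin1 by -0.08 (SE 0.14) and Grin2b by -0.08 (SE 0.41). Scaling moved these estimates as well. The median feature was 0.08 as deposited and 0.01 with TMM factors. With TMM factors Slc17a7 was at -0.46, Dlg4 at -0.35, Grin2a at 0.38, Syt1 at 0.07 and Snap25 at 0.03. Camk2a was then at -0.10, and Grin1 and Grin2b were at -0.15. With all rats, 0 of the 8 genes were called (0 at an unadjusted p under 0.05), as were 0% of all features, of which 2613 had an unadjusted p under 0.05 and DESeq2 called 907. Libraries overlapped for each of the 8 genes, where 14.2% of features had no overlap.

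Stimulated PD rats were also set against untreated controls, which are the same control libraries as in the first comparison. Differences ran from -0.18 (SE 0.13) for Dlg4 to 0.36 (SE 0.30) for Grin2a, and Slc17a7 and Camk2a were at -0.01 (SE 0.19) and 0.0056 (SE 0.16). Without control rat 1 the Grin2a difference was 0.14, and without stimulated PD rat 2 the Dlg4 difference was -0.08. For Camk2a the 95% interval was 0.789-fold to 1.28-fold. Here 0 of the 8 genes were called (0 at an unadjusted p under 0.05), where limma called 0.0334% of all features. Of all features, 3135 had an unadjusted p under 0.05 by limma, and DESeq2 called 1046. Fitted on the 2 compared groups only, limma called 2859 features and 0 of the 8 genes. Of the 8 genes 0 had no overlap, where 41.4% of features had none.

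In stimulated against unstimulated control rats all 8 estimates were below 0, with a median of -0.14. The median over all features was 0.03, and 59.0% of features had estimates above 0. Stimulated control rat 3 was below the median of the 12 libraries for 8 of the 8 genes and was the lowest library for Slc17a7 (899.8 CPM), Camk2a (1378 CPM), Grin1 (447 CPM) and Snap25 (1509.7 CPM). Without it the median of the 8 estimates was -0.02 and 2 of them were above 0; 2 were also above 0 without control rat 2. In the same library the median feature was 0.10 above its own median on the log2 scale. The largest differences from controls were -0.35 (SE 0.41) for Grin2b and -0.34 (SE 0.20) for Snap25, and neither passed (limma adjusted p = 1.00 for both). The Grin2b difference was 0.0079 without control rat 2, and the Snap25 difference was -0.14 without stimulated control rat 3. Of the 8 genes 0 were called (0 at an unadjusted p under 0.05), as were 0% of all features, of which 268 had an unadjusted p under 0.05 and DESeq2 called 0. Libraries of the 8 genes overlapped throughout, where 8.88% of features had no overlap.

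Whether stimulation acted differently in model and control rats was tested as an interaction. Estimates ran from -0.19 (SE 0.19) for Dlg4 to 0.53 (SE 0.42) for Grin2a, with Snap25 at 0.44 (SE 0.29). Without PD rat 2 the Grin2a estimate was 0.17, without stimulated PD rat 2 the Dlg4 estimate was -0.10, and without stimulated control rat 3 the Snap25 estimate was 0.24. By limma 0 of the 8 genes were called (0 at an unadjusted p under 0.05), as were 0% of all features, of which 619 had an unadjusted p under 0.05 and DESeq2 called 30. The interval reached from 0.757-fold to 2.74-fold for Grin2a, from 0.503-fold to 2.87-fold for Grin2b and from 0.876-fold to 2.09-fold for Snap25. For these genes a difference of 2-fold between the responses was not excluded by these data.

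With the deposited scaling, the order of the group means in CPM was not the same for all 8 genes. The lowest mean was in stimulated control rats for 6 of the genes (Slc17a7, Camk2a, Grin2a, Grin2b, Snap25 and Syt1) and in stimulated PD rats for Grin1 and Dlg4. For Grin2a this holds for CPM only: on the log2 scale its mean was lowest in PD rats, at 6.38 against 6.40 in stimulated controls. The highest was in PD rats for Slc17a7, Camk2a and Dlg4, in stimulated PD rats for Grin2a, Snap25 and Syt1, and in control rats for Grin1 and Grin2b. Neighbouring groups in this order overlapped in range for all 8 genes. Stimulated control rat 3 was the lowest library for 4 of the genes and below the median over all libraries for all 8. The order without that rat was not computed. Scaling changes the order too. With TMM factors, Grin1 and Dlg4 were higher in stimulated PD than in stimulated control rats, by 0.10 and 0.02 on the log2 scale. Grin1 and Grin2b were then higher in PD than in control rats, by 0.07 and 0.06.

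The NMDA receptor genes Grin2a and Grin2b varied more between rats of a group than most features did. Grin2b was at 20.1, 38.2 and 16.2 CPM in control rats and at 15.6, 16.2 and 41.6 CPM in PD rats. With stimulation it was at 22.0, 15.8 and 17.2 CPM in controls and at 19.1, 14.5 and 32.1 CPM in PD rats. Control rat 2, PD rat 3 and stimulated PD rat 3 stood above the other 9 libraries, which reached no higher than 22.0 CPM. Grin2a was at 65.5, 127 and 82.7 CPM in control and at 101, 50.0 and 113 CPM in PD rats, and the same 3 rats were its 3 highest libraries.

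The within-group SD on the log2 scale was 0.59 for Grin2b and 0.43 for Grin2a. It was larger than that of 97.3% of the 4916 features with a mean within 2-fold of that of Grin2b, and of 96.5% of the 3709 such features for Grin2a. Without PD rat 3 the share for Grin2b was 87.9%, and without PD rat 2 that for Grin2a was 93.0%, the lowest shares when each library was left out in turn. Against their own such features, the shares were 41.1% for Grin1, 34.2% for Dlg4 and 52.4% for Camk2a, and between them and the GluN2 genes lay Slc17a7 (70.3%), Snap25 (71.1%) and Syt1 (84.5%).

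**Figure D3:**
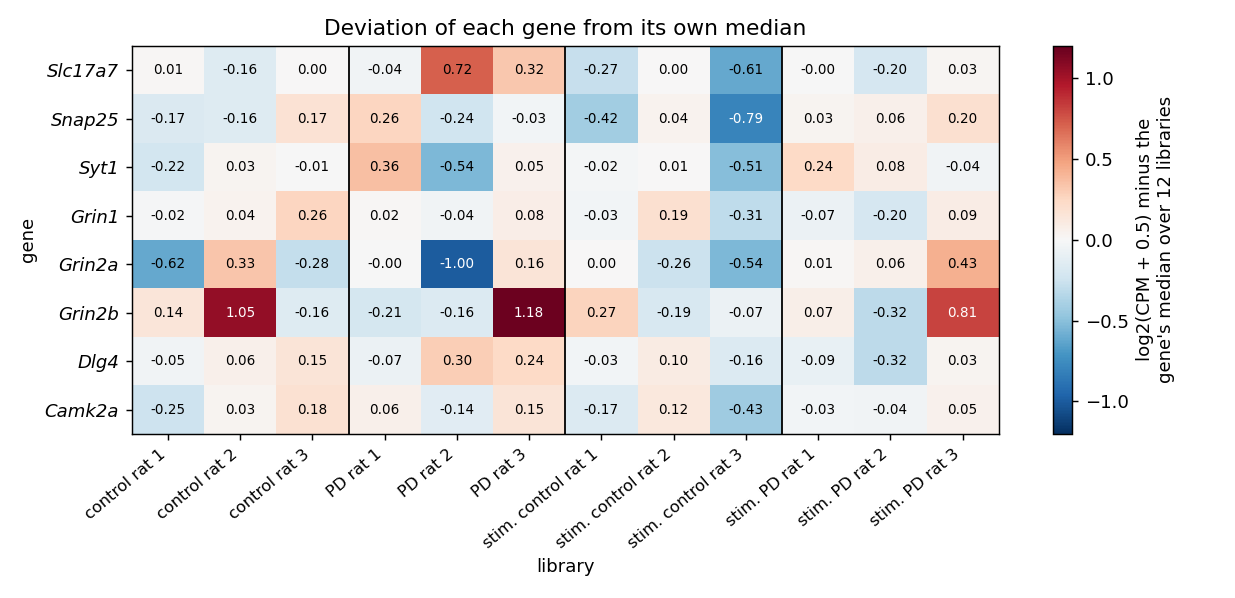
Deviation of log2(CPM + 0.5) from each gene's median over 12 libraries (colour and printed value), with genes in rows and libraries in columns, black lines between groups. Grin2b is 1.05, 1.18 and 0.81 above its median in control rat 2, PD rat 3 and stimulated PD rat 3, and in stimulated control rat 3 all 8 genes are below theirs.

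Ratios of 2 genes within a library do not depend on how the library was scaled, so 6 were compared between lesioned and unlesioned rats. The CPM ratio of Grin2a to Grin2b was 3.90 ± 1.04 in control and 4.08 ± 2.06 in PD rats (SD, n = 3). Among stimulated rats it was 4.64 ± 0.641 in controls and 5.61 ± 1.54 in the PD group (SD, n = 3). Transcript length enters this ratio as a constant, so only its change between groups can be read. It differed by 0.12 on the log2 scale between lesioned and unlesioned rats, by less than the spread (exact permutation test with labels exchanged only among rats of like stimulation, two-sided, unadjusted p = 0.640, where the smallest possible is 0.005).

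None of the other 5 ratios passed the same test. For Grin2a to Grin1 the ratio was 0.214 ± 0.0192 in stimulated PD and 0.158 ± 0.0270 in stimulated control rats (SD, n = 3), and over all lesioned and unlesioned rats the log2 difference was 0.22 (same exact permutation test, p = 0.375). For Grin2b to Grin1 it was 0.10 (exact p = 0.755). Camk2a to Dlg4, the kinase to its neighbouring scaffold, gave 0.09 (exact p = 0.455), Snap25 to Syt1 gave 0.12 (exact p = 0.350) and Slc17a7 to Snap25 gave 0.04 (exact p = 0.860). Some of these values average unlike differences. The Slc17a7 to Snap25 ratio differed by 0.33 on the log2 scale between PD and control rats and by -0.25 between stimulated PD and stimulated control rats. For Camk2a to Dlg4 the same differences were -0.07 and 0.24, and for Grin2a to Grin1 they were -0.01 and 0.45; whether they differ between the pairs was not tested. The ratio of Slc17a7 to Snap25 spread most in PD rats, from 0.427 in rat 1 to 1.02 in rat 2.

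Levels of some genes moved together from rat to rat. Over the 12 libraries, 24 of the 28 pairs of these genes had a Pearson's r above 0 on the log2 scale, with a median of 0.39. The same share for pairs of other features was not computed, so the count is not a trait of these genes. The highest were Camk2a with Snap25 (r = 0.842, Spearman's rho = 0.727), Camk2a with Grin1 (r = 0.804, rho = 0.818) and Slc17a7 with Dlg4 (r = 0.763, rho = 0.720). Without stimulated control rat 3 the first 2 were 0.682 and 0.662, and without PD rat 2 the last was 0.652, the lowest values when each library was left out. Without the 2 libraries farthest from the median of the first gene in each pair, r was 0.692, 0.742 and 0.653. Differences between groups enter these values. With each group's mean taken out, r was 0.854, 0.884 and 0.812 for the same 3 pairs. All values of a library share its scaling and its mix of cells. A permutation test of r over 12 libraries, adjusted over the 28 pairs, gave p of 0.0213, 0.0213 and 0.0488 for these 3 pairs. The same test of rho gave 0.102, 0.0585 and 0.102. Libraries were exchanged without regard to group, so these values serve as descriptions.

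Presynaptic genes did not form a block of their own. Slc17a7 had r = 0.383 with Snap25 and -0.114 with Syt1, while Snap25 and Syt1 had r = 0.720. PD rat 2 shows the split, being the highest library for Slc17a7 and Dlg4 and the lowest for Grin2a and Syt1. In that library the median over all features was 0.16 below its own median (-0.16), the lowest of the 12 libraries, and the part of this in the values of the 8 genes was not tested.

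**Figure D4:**
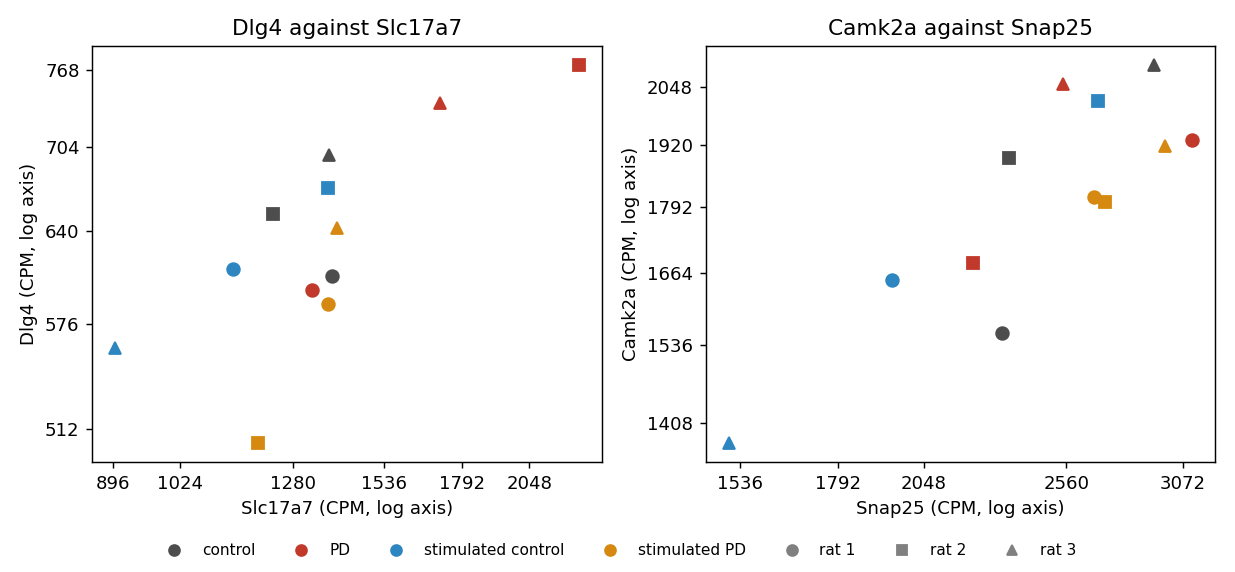
Dlg4 against Slc17a7 and Camk2a against Snap25, in CPM on log axes, 1 point per library, coloured by group with the rat number as symbol. PD rat 2 is at the upper right for Slc17a7 and Dlg4 (2260.5 and 772 CPM), and stimulated control rat 3 is at the lower left for Snap25 and Camk2a (1509.7 and 1378 CPM).

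Beyond these genes, the features most like each of them were sought among 11722 others with a mean of at least 5 CPM, by Pearson's r over the 12 libraries. Slc17a7 had 87 features with r above 0.9 and 182 below -0.9, Syt1 had 93 and 25, Snap25 39 and 34, and Dlg4 36 and 55. Grin2a had 11 and 21, Grin1 10 and 4, Camk2a 4 and 1, and Grin2b 0 and 0. The closest to Slc17a7 was ENSRNOG00000006369 (r = 0.980), the closest to Snap25 was ENSRNOG00000016196 (r = 0.978), the closest to Grin2a was ENSRNOG00000011460 (r = 0.975), and for Grin2b the closest was ENSRNOG00000047499 (r = 0.858). These features carry no symbol here, and their r was the highest of many.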

How the data were processed

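Per the labels' protocols, a stranded mRNA kit was used on total RNA. The submitters' processing notes name mRatBN7.2, featureCounts, STAR and Trim Galore, with no version. The deposited table holds CPM calculated by the authors; the sources used here give no annotation release, strand setting or normalization tool. All 12 columns were matched by description and 0 were left over. No value is 0. Dividing by each column's step gave whole reads for 100% of values (tolerance 0.001 read), used for edgeR and DESeq2.

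The main test was limma 3.58.1 (R 4.3.3) on log2(CPM + 0.5), with all 12 libraries, 1 coefficient per group, a trended prior variance and the 14985 features averaging 0.5 CPM or more, two-sided, with Benjamini-Hochberg adjustment over all features. Libraries are separate rats by title. The code was tested on simulated data. Alternatives were pseudocounts of 0.1 and 2 CPM, no filter or 5 CPM, TMM, median-of-ratios and quantile scaling, no variance trend, only the compared groups, a replicate block, edgeR 4.0.16, DESeq2 1.42.0 and leaving out each library. edgeR called 475 features in PD against control, 15 in the stimulated pair and 3265 for lesioned against unlesioned rats; DESeq2 called 2037, 2019 and 4366.

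The genes, lists and ratios were chosen with earlier results of these data known. The rule for naming genes took all 8 members and, for each, the 2 features most like it; of the latter only 4 are printed, because identifiers have no symbol here. For the same reason the lists of other glutamate, mitochondrial and cell type marker genes are not analysed here.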

Additional observations from a re-analysis of the deposited data

How the results depend on the processing

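The count of called genes among the 8 was 0 in each of the 7 comparisons and stayed 0 under every alternative for PD against control, stimulated control against control, stimulated PD against control and the interaction. For lesioned against unlesioned rats it was 1 by DESeq2 (Slc17a7), and when each library was left out it ranged from 0 to 1. For stimulated PD against stimulated control rats that range was 0 to 1, and for stimulated PD against PD rats 0 to 2. The number of all features called by limma varied widely, so the shares set beside the 8 genes hold for the main fit. For PD against control rats it fell from 657 to 4 without control rat 1. For stimulated PD against stimulated control rats it went from 217 to 2163 with only the compared groups, and to 2 without stimulated control rat 3. The replicate block, by rat number in the titles, gave 0 in all 7 comparisons. By that number libraries did not pair. Of 18 same-numbered pairs, 3 had deviations correlated above 0.1 (-0.46 to 0.36), and 2 of 12 libraries correlated best with their own number. The column names number the PD rats and stimulated PD rat 3 otherwise, and pairing by those numbers was not tested. Of 1328 recomputed differences of single genes, 1327 moved by less than the spread between rats, 85 took the other sign (52 of 672 with a library left out and 33 of 656 otherwise), none of them called, and Dlg4 in PD against control moved from 0.10 to 0.26 by DESeq2. All 84 recomputed ratios kept their side of the threshold or moved by less than the spread. Within-group SDs and pair correlations were recomputed without each library and with TMM factors, alternatives chosen after seeing the data: with TMM factors the SD was 0.59 for Grin2b and 0.44 for Grin2a, and r was 0.880 for Slc17a7 with Dlg4. Counting error was at most 3.69% of a value for these genes. The causes of these changes were not tested.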
